A study of Mus musculus with 22 samples.

Results

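Lung epithelium of mice carrying 1 Nkx2.1-GFP allele was compared with wild-type lung epithelium at 6 months of age, in 6 of the 22 RNA-seq libraries of the series. The mutant group had the genotype Nkx2.1-GFP/+ (3 libraries, called Nkx here) and the control group the genotype NANCI-+/+ (3 libraries, called WT). The libraries were taken by their age and genotype labels, and every gene listed in all of them was compared, 15958 in total. The cells had been collected by flow cytometry as positive for EpCAM, a surface protein of epithelial cells, and negative for CD45 and CD31, the usual surface markers of leukocytes and endothelial cells. The study concerned Nkx2.1 and NANCI, a long noncoding RNA gene beside it. Mice with the same GFP allele and also a CreERT2:RFP allele of NANCI, written as NANCI-CreERT2:RFP/+:Nkx2.1-GFP/+, gave another 4 libraries of 6 months (called Double). The Nkx and WT genotypes were also sampled before birth, at E18.5, with 3 libraries each. The labels do not say which bases of Nkx2.1 the GFP allele replaces, whether each library came from its own animal, or the sex of the mice. The p-values therefore reflect only how much these libraries varied, which may be technical.

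NKX2-1, encoded by Nkx2-1 (called Nkx2.1 in the labels), is a homeodomain transcription factor of the lung, thyroid and ventral forebrain. In the lung it marks the endoderm from which the airways and alveoli form, and in the adult it remains active in alveolar type 2 (AT2) cells, which make surfactant, and in club cells, which make secretoglobins. Its known direct targets include surfactant protein and secretoglobin genes in the lung and thyroglobulin in the thyroid. Complete loss of the factor in lung epithelium is known to be followed by expression of stomach-type genes, and people with 1 altered copy can have lung, thyroid and movement disorders.

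All levels below are log2 expression values, and each difference is Nkx minus WT on the log2 scale with its standard error (SE, n = 3 in each group). Since it is not stated whether the values were divided by transcript length, levels were compared within a gene and not between genes. Xist and Ddx3y levels gave the male pattern in WT replicates 1 and 2 and Nkx replicate 3, and the female pattern in WT replicate 3 and Nkx replicates 1 and 2, so the sex patterns were unevenly spread over the groups, and their part in the results below was tested only through the fits with sex pattern as a covariate (228 genes called) or alone. WT replicate 3 held both an Xist level of 14.21 and a Ddx3y level of 6.2, above the 3.07 and 3.35 of the female-pattern Nkx libraries. Epcam was at 12.95, 12.95 and 13.05 in WT and 13.08, 13.24 and 13.29 in Nkx. The endothelial gene Pecam1, which encodes CD31, was nevertheless at 12.2, 12.77 and 13.52 in WT and 12.87, 12.38 and 11.78 in Nkx. Correlations between libraries were 0.962 to 0.969 within WT, 0.958 to 0.977 within Nkx and 0.941 to 0.966 across the groups.

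Nkx2-1 itself (ENSMUSG00000001496, chr12:56531958-56536908 of GRCm38, minus strand) was at 14.17, 14.55 and 14.4 in WT and at 13.96, 13.77 and 13.85 in Nkx. Every Nkx library lay below every WT library. The difference was -0.52 ± 0.17, a 1.43-fold lower level, and did not pass the threshold (limma adjusted p = 0.128). An exact two-sided permutation test over the 6 libraries gave p = 0.1, the smallest value that 3 libraries against 3 allow. The Double libraries were at 13.75, 13.97, 14.43 and 13.96, a difference from Nkx of 0.17 (limma adjusted p = 0.498). Since the replaced part of the gene is not given, its RNA level does not check the genotype labels.

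None of the 13 measured genes of the Nkx2-1 neighbourhood passed the threshold of an adjusted p of 0.05, and 3 had an unadjusted p under it in the same limma fit. Mbip, a neighbour of Nkx2-1 that encodes an inhibitor binding a MAP kinase kinase kinase, was at 11.79, 11.91 and 11.21 in WT and 12.31, 12.37 and 12.31 in Nkx, without overlap of the groups (0.7 ± 0.22, limma adjusted p = 0.114). Foxa1, a pioneer factor of endoderm on the same chromosome, differed by -0.12 ± 0.15 (limma adjusted p = 0.671). Nkx2-9, a homeobox gene next to Nkx2-1, was at 3.93, 4.82 and 4.73 in WT and at 6.51, 5.15 and 4.52 in Nkx, with overlapping groups. NANCI itself was not analysed here.

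Across the genome 419 of the 15958 genes (2.63%) differed between Nkx and WT, of which 242 (1.52%) rose in Nkx and 177 (1.11%) fell (limma, Benjamini-Hochberg adjusted p under 0.05). Of these, 201 changed by at least 1 on the log2 scale, 131 upward and 70 downward. The 2 groups did not overlap in 4871 genes (30.5%), 2574 (16.1%) with all Nkx libraries above and 2297 (14.4%) with all below, and all 419 called genes were among them. The median difference over all genes was 0.01. An unadjusted p under 0.05 was found in 3495 of the 15958 genes, and the counts of list members with such a p below are to be read beside it.

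**Figure D1:**
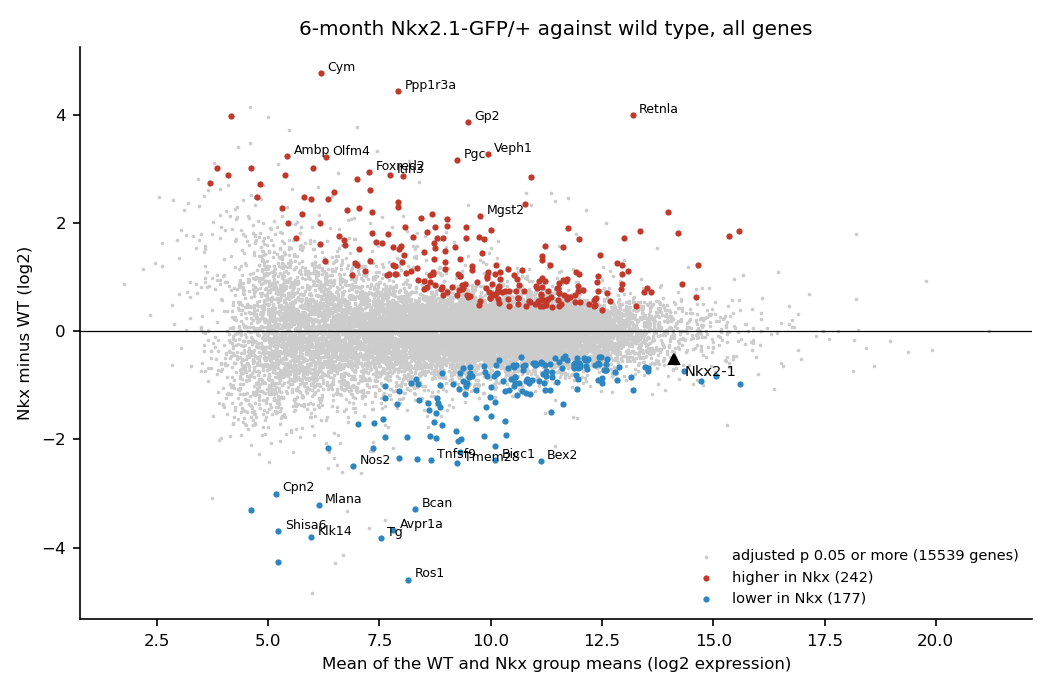
Each point is a gene at 6 months, with the mean of the WT and Nkx group means on the horizontal axis and the Nkx minus WT difference on the vertical axis, both log2; red and blue points are the 242 higher and 177 lower genes with a limma adjusted p under 0.05, and the triangle is Nkx2-1. The labelled genes are among the largest changes and the smallest p-values, and Nkx2-1 lies at -0.52 among the uncalled genes.

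The count of called genes depended on single libraries. It was 178, 59 and 211 without WT replicate 1, 2 or 3, and 75, 65 and 144 without Nkx replicate 1, 2 or 3. A fit of the 6 libraries alone called 475 genes, 210 higher and 265 lower, of which 306 were among the 419 in the same direction. All 419 genes kept the sign of their difference under each of 14 other settings of the analysis. They also kept it within the female-pattern and the male-pattern libraries taken alone. As the groups of all 419 did not overlap, no sign could change when a library was left out or the sex patterns were split. Of the 419, 42 passed the threshold under each of the 14 settings, 24 higher and 18 lower.

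The gene with the smallest p among those that rose was Ppp1r3a (ENSMUSG00000042717, chr6:14713977-14755274, minus strand), a regulatory subunit that directs protein phosphatase 1 to glycogen and is best known from skeletal muscle. Its level was 4.74, 6.56 and 5.79 in WT and 10.15, 10.52 and 9.77 in Nkx. The Nkx libraries thus formed a tight group far above all WT libraries, with a difference of 4.44 ± 0.36, a 21.8-fold higher level (limma adjusted p = 0.00049). Bicc1 (chr10:70922832-71159700, minus strand), an RNA-binding protein known from kidney and liver duct formation, had the smallest p among those that fell. Its level was 11.09, 11.61 and 11.18 in WT and 9.16, 8.71 and 8.88 in Nkx (-2.38 ± 0.19, limma adjusted p = 0.00049). A gene that overlaps Bicc1 on the other strand, 4930533K18Rik, also fell, by 1.72 (limma adjusted p = 0.0218), and as the use of strand in counting is not stated here, reads of the pair cannot be told apart.

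The 12 largest increases were a mixed group that included some genes of the stomach and gut. Cym, the milk-clotting protease chymosin of the stomach, was at 2.85, 3.81 and 4.73 in WT and at 9.49, 6.66 and 9.55 in Nkx. Its difference of 4.77 ± 1.01 was the largest of these and rested on low WT values (limma adjusted p = 0.0347). Pgc, which encodes the pepsinogen progastricsin and is made in the stomach and in AT2 cells, was at 7.6, 8.41 and 6.97 in WT and 11.03, 10.58 and 10.88 in Nkx (3.17 ± 0.44, 8.99-fold, limma adjusted p = 0.00677). Olfm4, an olfactomedin of gut crypts, moved from 4.74, 4.82 and 4.55 to 7.66, 7.98 and 8.1 (3.21 ± 0.29, limma adjusted p = 0.000802), with narrow groups on both sides.

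Retnla, a secreted resistin-like protein of type 2 immune responses, was at 11.7, 9.65 and 12.26 in WT and at 15.07, 15.8 and 14.71 in Nkx. Its WT libraries differed among themselves by more than those of Nkx, yet the groups were well apart (3.99 ± 0.71, 15.9-fold, limma adjusted p = 0.02). Gp2, a glycoprotein of pancreatic granules and of the gut's M cells, reached 10.27 in WT replicate 3 against 7.09 and 5.33 in the other two WT libraries, and 11.88, 11.29 and 11.11 in Nkx. It remained just past the threshold (3.86 ± 0.9, limma adjusted p = 0.0481) and passed in 3 of 17 other settings, whereas Ppp1r3a passed in 16. Among other called genes named in this report, Agr2 and Avpr1a passed in 4 of these 17 and Mlana in 5. Cym, Pigr, Clu and Cpn2 passed in 6, and Tg, Shisa6 and Foxred2 in 7. Olfm4, Pgc, Ros1, Klk14 and Bex2 passed in 15. With sex pattern as a covariate, Cym, Avpr1a, Mlana, Nos2 and Clu were among those that did not pass (limma adjusted p = 0.0551 to 0.0853). Veph1, a membrane-binding protein, was at 8.13, 8.72 and 8.01 in WT and 11.57, 10.97 and 12.15 in Nkx (3.28 ± 0.31, limma adjusted p = 0.00105).

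The other large increases were Ambp (3.23), the precursor of alpha-1-microglobulin and bikunin, Itih3 (2.88), a partner chain of bikunin, and Foxred2 (2.94), a flavoprotein of endoplasmic reticulum degradation. Foxred2 was the most variable of these in Nkx, at 7.33, 9.4 and 9.48. Mgst2, a microsomal enzyme that joins glutathione to lipids, was among the 5 genes with the smallest p and was at 8.65, 8.38 and 9.06 in WT and 10.63, 10.83 and 11.02 in Nkx (2.13 ± 0.2, limma adjusted p = 0.000809).

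**Figure D2:**
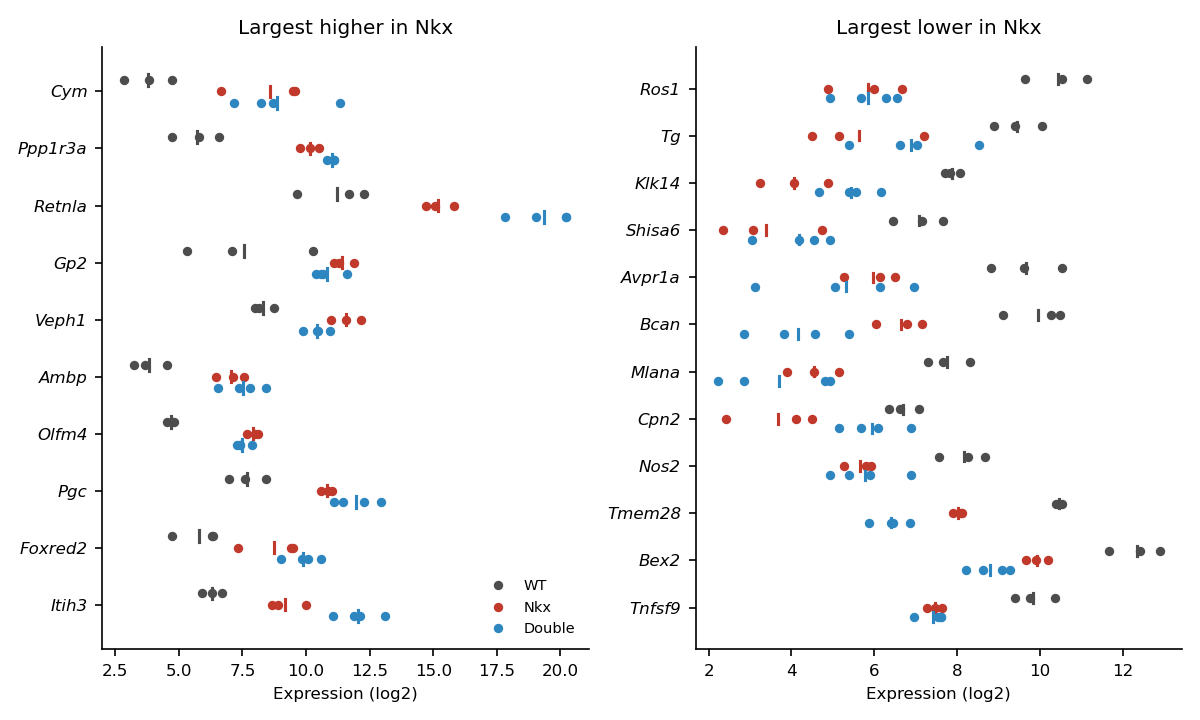
Log2 expression of 10 of the 12 largest increases and of the 12 largest decreases past the threshold with a mean level of at least 5, predicted genes and clones left out, one point per library for WT (3), Nkx (3) and Double (4), with short bars at group means. The Nkx points lie outside the range of the WT points in each of the 22 genes.

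The largest decrease was that of Ros1 (chr10:52045721-52195244, minus strand), a receptor tyrosine kinase of epithelia. Its level was 11.14, 10.53 and 9.64 in WT and 5.99, 4.89 and 6.67 in Nkx, a difference of -4.59 ± 0.54 and a 24.1-fold lower level (limma adjusted p = 0.0029). Tg, the thyroid hormone precursor thyroglobulin, followed when predicted genes and clones are left out, at 9.4, 10.05 and 8.88 in WT and 4.5, 5.15 and 7.21 in Nkx (-3.82 ± 0.78, limma adjusted p = 0.0305). Nkx replicate 3 lay between the other Nkx libraries and WT for this gene. Klk14, a secreted serine protease of the kallikrein family, was at 7.83, 8.07 and 7.71 in WT and 4.07, 4.89 and 3.25 in Nkx (-3.8 ± 0.51, limma adjusted p = 0.00615).

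The remaining decreases of this size included Shisa6, a modulator of glutamate receptors, Avpr1a, a vasopressin receptor (-3.68), Bcan, the brain proteoglycan brevican (-3.29), Mlana, a melanosome protein (-3.21), and Bex2 (-2.4). Shisa6 stood at the lowest value of the library in 2 of the 3 Nkx libraries, so its difference of -3.7 ± 0.74 is given without a fold. Bex2, a brain-expressed X-linked gene that adult AT2 cells also express, was at 12.89, 12.42 and 11.67 in WT and 9.67, 9.91 and 10.2 in Nkx (± 0.32, limma adjusted p = 0.00574). Nos2, the inducible nitric oxide synthase, fell by 2.5 (7.56, 8.66 and 8.26 in WT against 5.27, 5.91 and 5.8 in Nkx). Tnfsf9, the ligand of 4-1BB on T cells, fell by 2.38, Cpn2, a carboxypeptidase N subunit, by 3, and Tmem28 by 2.43. Tmem28 had tight groups, at 10.53, 10.39 and 10.48 in WT and 7.89, 8.12 and 8.08 in Nkx.

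The region 250 bases upstream of the start site was searched for CTCAAG, the core of the known NKX2-1 binding motif, on both strands, in RefSeq promoters of GRCm38.p6. It was present in 1811 of 14746 promoters of genes tested (12.3%), in 29 of 221 promoters of genes that rose (13.1%) and in 14 of 180 of genes that fell (7.78%). Of the 60 genes past the threshold that the naming rule selected, 38 had a listed promoter and were kept for this count. Genes of the chromosome that carries Scgb3a2 and Ttr were left out by choice, so the count says nothing of their promoters. Of the 38, 3 held the motif: Retnla, Csf1 and Pcna. Their upstream bases are shown because they are the members in which the factor's core letters occur, with the match in capitals, as CTCAAG or as its reverse complement CTTGAG on the gene's strand.
Retnla, chr16:48842359-48842608, plus strand: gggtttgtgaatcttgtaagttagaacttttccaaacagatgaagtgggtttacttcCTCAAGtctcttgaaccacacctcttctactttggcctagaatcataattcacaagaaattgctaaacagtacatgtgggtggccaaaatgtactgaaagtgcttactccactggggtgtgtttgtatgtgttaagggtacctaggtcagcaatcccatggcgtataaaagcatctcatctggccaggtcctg
Csf1, chr3:107760470-107760719, minus strand: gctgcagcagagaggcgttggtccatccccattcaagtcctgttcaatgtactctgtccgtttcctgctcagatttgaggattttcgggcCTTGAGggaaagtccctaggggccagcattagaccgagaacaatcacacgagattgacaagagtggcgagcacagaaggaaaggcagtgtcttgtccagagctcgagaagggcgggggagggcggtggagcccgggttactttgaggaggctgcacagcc
Pcna, chr2:132253181-132253430, minus strand: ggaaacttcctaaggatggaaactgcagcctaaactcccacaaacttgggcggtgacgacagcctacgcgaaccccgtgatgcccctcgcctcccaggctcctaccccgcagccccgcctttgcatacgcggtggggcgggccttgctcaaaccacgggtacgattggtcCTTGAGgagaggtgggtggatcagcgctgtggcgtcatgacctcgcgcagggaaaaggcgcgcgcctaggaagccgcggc
Counted from the start site, the match began at base -193 in Retnla, -160 in Csf1 and -80 in Pcna. These matches describe letters only and were not read as binding. Retnla rose as described above. Csf1, the growth factor of macrophages, fell from 9.71, 9.96 and 9.65 to 8.35, 8.68 and 7.09 (-1.74 ± 0.35, limma adjusted p = 0.0289), and Pcna, the sliding clamp of DNA replication, rose from 11.26, 11.26 and 11.04 to 11.86, 11.85 and 11.95 (0.7 ± 0.11, limma adjusted p = 0.012).

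Mucus-producing cells were represented by a list of 27 measured mucin and goblet cell genes. Of these 7 rose and none fell, which is 25.9% called beside 2.63% of all genes. The gene lists of this report were chosen with earlier results of these data known, and some share members. Their shares beside that of all genes therefore describe and test nothing. The median difference was 1.01 against 0.01 over all genes. The list's mean level was 8.4, 7.78 and 8.72 in WT and 9.37, 9.4 and 9.08 in Nkx, so the groups did not overlap. Spdef, the transcription factor of goblet cell differentiation, was at 7.9, 7.42 and 8.4 in WT and 9.58, 9.65 and 9.34 in Nkx (1.62 ± 0.21, limma adjusted p = 0.00574). Muc5ac, a gel-forming mucin of airway and stomach surface, was at 7.46, 6.52 and 8.16 in WT and 9.13, 9.26 and 8.98 in Nkx (1.74 ± 0.33, limma adjusted p = 0.0241). Tff2, a trefoil peptide of gastric mucus, moved from 9.41, 8.41 and 10.65 to 12.49, 12.73 and 11.8 (2.85 ± 0.51, 7.21-fold, limma adjusted p = 0.02).

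The mucus pathway's other called members acted at several steps. Agr2, a disulfide isomerase needed for mucin folding, rose by 2.2, Ern2, the stress sensor of mucous cells, by 1.3, Muc20, a membrane mucin, by 0.99, and Pigr, the receptor that carries IgA across the epithelium, by 2.21. Muc5b, the main gel-forming mucin of the healthy airway, was at 11.22, 10.58 and 12.97 in WT and 13.89, 13.71 and 13.17 in Nkx and did not pass (limma adjusted p = 0.0572). WT replicate 3 was the highest WT library for Tff2, Muc5ac, Agr2, Pigr and Muc5b. The number of mucin list members that rose was 11 without that library and 1 without WT replicate 1, WT replicate 2, Nkx replicate 1 or Nkx replicate 2, and 3 without Nkx replicate 3.

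Club cells are the secretory cells of the airway lining. Of 27 measured secretory cell genes 4 rose and none fell, which is 14.8% called beside 2.63% of all genes. The median difference was 0.95, and 18 had an unadjusted p under 0.05. Scgb3a2, a secretoglobin of airway secretory cells and a known NKX2-1 target, was at 14.49, 13.85 and 15.63 in WT and 16.61, 16.82 and 16.07 in Nkx (1.85 ± 0.36, 3.6-fold, limma adjusted p = 0.0266). Chad, a matrix protein, rose by 2.35 and Gsta4, a glutathione transferase, by 1.11. Scgb1a1, the classical club cell marker, was at 19.26, 18.44 and 20.24 in WT and 20.24 in each Nkx library, near the top of the scale, and did not pass (limma adjusted p = 0.502).

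The mean of the secretory list was 12.36, 12.16 and 13.46 in WT and 13.69, 13.54 and 13.29 in Nkx. WT replicate 3 therefore lay within the Nkx range, and the count of called members was 10 without it, 1 without WT replicate 1, 3 without Nkx replicate 3, and 0 without any of the other three libraries. In bulk samples, more cells of a type and more RNA per cell cannot be told apart, and this holds for each cell type list given here.

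**Figure D3:**
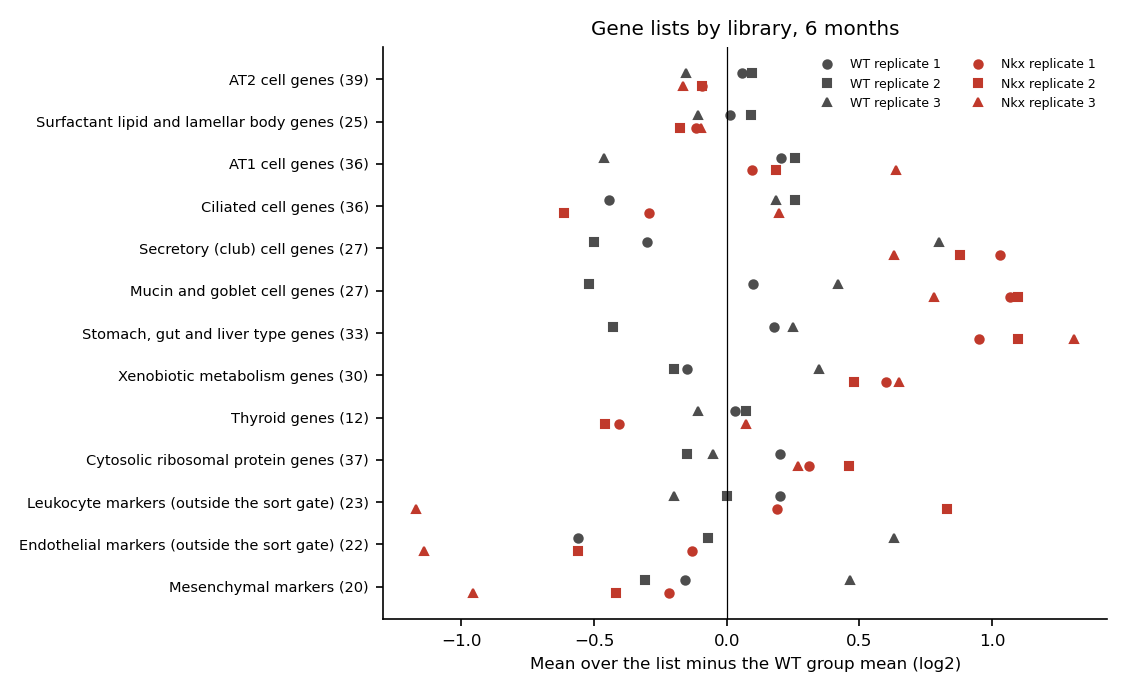
Mean log2 expression over each gene list in each WT (grey) and Nkx (red) library, as the difference from the mean of the 3 WT libraries, with the number of measured genes in brackets. Mucin, stomach, gut and liver, xenobiotic metabolism and cytosolic ribosomal protein lists lie higher in all 3 Nkx libraries than in all WT libraries. The triangle of WT replicate 3 lies within the Nkx range for the secretory list.

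Genes of the stomach, gut and liver rose in 7 of 33 measured cases and fell in none, with a median difference of 0.92 and a list mean of 6.52, 5.91 and 6.59 in WT against 7.29, 7.44 and 7.65 in Nkx. Besides Cym, Pgc and Tff2 they were Hnf4a, Ttr, Apob and Ces1f. Hnf4a, a nuclear receptor that specifies liver and gut epithelium, was at 4.95, 4.13 and 5.15 in WT and 6.88, 6.25 and 8.45 in Nkx (2.45 ± 0.51, limma adjusted p = 0.0339). Ttr, the thyroid hormone carrier transthyretin, was at 2.34, 1.32 and 2.85 in WT, with WT replicate 2 at that library's lowest value, and 5.78, 6.25 and 6.4 in Nkx (3.97 ± 0.61, limma adjusted p = 0.0113). Apob, the structural protein of lipoproteins, moved from 7.31, 5.89 and 6.97 to 8.33, 9.95 and 9.05. The count was 2 to 4 when single libraries were left out, and reads of Ces1f could be shared with its close relatives in the Ces1 family.

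Whole families were then tabulated after these values had been seen, so the following counts describe and test nothing. They are to be read beside the 2.63% of all genes called. In the inter-alpha-trypsin inhibitor family, whose chains bind hyaluronan and bikunin, 4 of 6 measured genes rose. Itih4 was at 14.43, 14.5 and 14.5 in WT and 16.2, 16.87 and 15.61 in Nkx (1.75 ± 0.29, limma adjusted p = 0.0163), and Itih2 rose by 2.16. Of 34 measured liver-type plasma protein genes 8 rose and none fell. Those that rose included the copper carrier Cp (1.85), the heme carrier Hpx (2.28) and the fibrinogen-like hepatokine Fgl1 (2.6). The complement regulators Cfi (2.3) and C4bp (2.28) also rose. Of the 34, 6 had a mean level under 5 over the WT and Nkx libraries, which leaves little room for a fall. Cp was at 12.27, 11.69 and 13.32 in WT and 14.55, 14.22 and 14.07 in Nkx. Albumin, encoded by Alb, was at 7.14, 6.72 and 7.32 in WT and 8.16, 8.16 and 8.02 in Nkx and did not pass (limma adjusted p = 0.0847).

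Of 39 measured AT2 genes 2 rose, Retnla and Pgc, and 1 fell, Bex2, which is 7.69% beside 2.63% of all genes tested, and the list median was -0.33. None of these 3 encodes a surfactant component. In the AT2 list 17 genes had all Nkx libraries below all WT libraries and 6 had all above, beside 14.4% and 16.1% of all genes. Of 25 surfactant lipid and lamellar body genes none passed in limma, and 10 had an unadjusted p under 0.05. Among these 25, 9 had all Nkx libraries below all WT libraries and 3 had all above. Sftpb, a hydrophobic surfactant protein, was at 19.04, 18.88 and 18.88 in WT and 18.44, 18 and 18.44 in Nkx (-0.64 ± 0.37, limma adjusted p = 0.332). Sftpc held the top value of 21.19 in each of the 6 libraries, so the scale could not show a difference for it. Abca3, the lipid transporter of lamellar bodies, differed by -0.58 (limma adjusted p = 0.241), Napsa, the protease that processes surfactant proteins, by -0.48 (limma adjusted p = 0.294), and Lamp3, a lamellar body membrane protein, by 0.08. Lyz1, a lysozyme that can mark AT2 cells, was at 17.17, 17.83 and 16.93 in WT and 19.04, 19.04 and 19.26 in Nkx, without overlap, and did not pass (limma adjusted p = 0.0585).

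No alveolar type 1 (AT1), ciliated or basal cell gene passed in limma, and with 2.63% of all genes called, lists of this size are too short for a count of 0 to stand apart. Of 36 AT1 genes 5 had an unadjusted p under 0.05, and the median difference was 0.27. Ager, a receptor on AT1 cells, was at 16.93, 16.57 and 15.83 in WT and 16.31, 16.42 and 17.07 in Nkx, with overlapping groups. Of 36 ciliated cell genes 5 had an unadjusted p under 0.05 (median -0.25). Foxj1, the regulator of motile cilia, was at 13.62, 13.87 and 14.12 in WT and 12.99, 12.79 and 13.65 in Nkx (limma adjusted p = 0.126). Of 16 basal and squamous epithelium genes 4 had an unadjusted p under 0.05 (median 0.66), and WT replicate 3 was the highest WT library for Krt5 (5.76, 8.31 and 10.68 in WT and 9.5, 9.28 and 9.46 in Nkx). In the neuroendocrine list 1 of 16 genes passed, the decrease of Bex2 already given.

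Thyroid genes went in both directions. Of 12 measured genes 25% were called, beside 2.63% of all genes. Among them 1 rose, Iyd, and 2 fell, including Tg. Iyd, which recovers iodide from iodotyrosines, was at 7.64, 7.86 and 8.65 in WT and 10.13, 9.8 and 10.08 in Nkx (1.95 ± 0.26, 3.87-fold, limma adjusted p = 0.00574). Among 15 known NKX2-1 targets of lung and thyroid 2 (13.3%) passed, Scgb3a2 upward and Tg downward, and the median was -0.01. Without WT replicate 3 the 2 called targets both rose, so the call of Tg was lost, and none was called without WT replicate 1, WT replicate 2, Nkx replicate 1 or Nkx replicate 2.

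Enzymes that process foreign compounds rose in 6 of 30 measured cases and fell in none, which is 20% called beside 2.63% of all genes. The list's median difference was 0.52. The called genes included Gsto1, Aldh3a1, Ces1f, Gsta4 and Gstm2. Gsto1, an omega class glutathione transferase, was at 11.99, 11.66 and 12.74 in WT and 13.75, 13.89 and 13.91 in Nkx (1.72 ± 0.3, limma adjusted p = 0.0188). Aldh3a1, an aldehyde dehydrogenase of airway and cornea, rose by 1.58 (limma adjusted p = 0.046). The called count was 7 without WT replicate 3, 1 without WT replicate 1, 2 without Nkx replicate 3 and 0 without any of the other three libraries. Among all 22 measured glutathione transferase genes, a family also tabulated after the values were seen, 8 rose and none fell, including Gstk1 (0.89), Mgst1 (0.87), Gstz1 (0.75) and Gstm6 (2.45), and reads of the Gstm genes could be shared among close copies.

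Tight junction genes were among those that rose. In the list of simple epithelial keratins and adhesion genes 3 of 16 passed, which is 18.8% beside 2.63% of all genes. All 3 were claudins, the proteins that set the permeability of tight junctions. Cldn2, which forms cation pores, was at 6.14, 5.57 and 5.84 in WT and 7.42, 7.53 and 7.68 in Nkx (1.69 ± 0.22, limma adjusted p = 0.00538). Cldn4 was at 8.24, 8.48 and 9.05 in WT and 10.78, 10.43 and 9.75 in Nkx (1.73 ± 0.26, limma adjusted p = 0.0113), and Cldn8 rose by 0.85.

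Glycogen genes moved in opposite directions, and the counts below are to be read beside the 2.63% of all genes called. Of 24 measured, tabulated after the values were seen, Ppp1r3a rose, and Gys1, the glycogen synthase of muscle and most tissues, and Gaa, the lysosomal enzyme that degrades glycogen, fell. Gys1 was at 11.42, 11.47 and 11.21 in WT and 10.59, 10.49 and 10.33 in Nkx (-0.9 ± 0.13, limma adjusted p = 0.00803), and Gaa fell by 0.61. Of 24 subunit genes of the vacuolar proton pump, tabulated in the same way, Atp6v1b1 rose and Atp6v0a1, Atp6v0a4 and Atp6v1g3 fell. Atp6v1b1, the B1 subunit of acid-secreting cells, was at 7.87, 6.78 and 8.72 in WT and 10.1, 9.85 and 9.16 in Nkx (1.92 ± 0.42, limma adjusted p = 0.041). Atp6v0a4, the partner a4 subunit of the same cells, was at 9.21, 8.64 and 9.45 in WT and 6.55, 7.33 and 6.4 in Nkx (-2.34 ± 0.32, limma adjusted p = 0.00615).

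Stress, growth and signalling lists held between 0 and 3 calls each, to be read beside the 2.63% of all genes. Of 27 p53, senescence and Krt8 transitional state genes 3 (11.1%) rose, the secreted chaperone Clu (1.81), Cldn4 and the p53 target Ccng1 (0.63). Of 41 cell cycle genes 2 (4.88%) rose. They were Gmnn, which blocks relicensing of DNA replication, and Pcna, and the list median was -0.14. Gmnn was at 8.27, 7.71 and 8.21 in WT and 9.51, 9.38 and 9.3 in Nkx (1.34 ± 0.24, limma adjusted p = 0.02). Of 28 genes of the unfolded protein and amino acid stress responses 2 (7.14%) rose. Asns, asparagine synthetase, rose from 9.61, 9.69 and 9.69 to 10.58, 10.62 and 11.05 (1.09 ± 0.16, limma adjusted p = 0.00874), and Eif4ebp1, an inhibitor of cap-dependent translation, rose by 0.76. Gadd45b alone rose of 31 immediate early genes, by 1.02, and none of 31 interferon-stimulated or 11 MHC class II genes passed in limma, with 3 and 1 at an unadjusted p under 0.05.

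Of 22 epithelial cytokine and inflammation genes Ptgs2 rose and Csf1 fell (9.09% called). Ptgs2, the inducible enzyme of prostaglandin synthesis, was at 12.87, 12.11 and 12.04 in WT and 13.49, 13.58 and 13.61 in Nkx (1.22 ± 0.22, limma adjusted p = 0.0216). Among 22 lysozymes and antimicrobial proteins 3 (13.6%) rose, which were Retnla, Retnlg (2.57), a second resistin-like protein, and Lrg1 (1.23), a secreted glycoprotein of inflammation. None of 33 Wnt and Notch genes passed in limma, with 10 at an unadjusted p under 0.05 and a median of -0.43, and Nkd1, an inhibitor of Wnt signalling, was at 13.59, 13.28 and 13.64 in WT and 12.5, 13.02 and 12.26 in Nkx (limma adjusted p = 0.131). Tgfb2, a transforming growth factor ligand, was the single call of 31 FGF, BMP and TGF-beta genes, at 8.13, 8.14 and 8.18 in WT and 8.88, 9.23 and 9.66 in Nkx (1.1 ± 0.2, limma adjusted p = 0.0204). Foxp2, a forkhead repressor of distal lung epithelium, was the single call of 33 lung endoderm transcription factors, at 8.84, 8.99 and 8.53 in WT and 9.9, 9.8 and 9.73 in Nkx (1.02 ± 0.14, limma adjusted p = 0.00677). Trpv6, a calcium channel, rose by 1.13 and was the single call of 28 ion and water transport genes.

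Lipid synthesis genes included 2 that fell, Acaca (-0.9), which makes malonyl-CoA for fatty acid synthesis, and Scap (-0.67), the sterol-sensing escort of SREBP. Of the 36 measured, 1 rose, Elovl5 (0.73), an elongase of polyunsaturated fatty acids. In all 8.33% of the list were called, beside 2.63% of all genes. Scap was at 12.23, 12.26 and 12.1 in WT and 11.68, 11.38 and 11.52 in Nkx (limma adjusted p = 0.0134). Without WT replicate 2 or Nkx replicate 2 neither decrease passed. Neither passed with a trend on transcript length and GC content removed.

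Markers of cells outside the sort gate did not pass in any case. Of 22 endothelial genes all 22 had a difference below 0, with a median of -0.6, list means of 10.75, 11.24 and 11.94 in WT and 11.18, 10.75 and 10.17 in Nkx, and 3 at an unadjusted p under 0.05 in limma. Of 20 mesenchymal genes all 20 had a difference below 0 (median -0.5, 3 at an unadjusted p under 0.05), and the list means of 9.73, 9.58 and 10.35 in WT and 9.67, 9.47 and 8.93 in Nkx overlapped. None of 23 leukocyte genes had an unadjusted p under 0.05, and their list means were 7.1, 6.9 and 6.7 in WT and 7.09, 7.73 and 5.73 in Nkx. No mesothelial (11) or erythroid and cardiac muscle (8) gene passed, with 4 and 1 at an unadjusted p under 0.05. These levels ran lowest in Nkx replicate 3 for the endothelial, mesenchymal and leukocyte lists, and their part in the changes above was not tested.

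No gene of the housekeeping lists passed in limma. Of 37 cytosolic ribosomal protein genes 36 had a difference above 0 and 21 had all Nkx libraries above all WT libraries, beside 50.6% and 16.1% of all genes, with a median of 0.35 and 13 at an unadjusted p under 0.05. Of 32 respiratory chain genes 28 had a difference above 0 (median 0.39, 13 at an unadjusted p under 0.05), and the 6 nuclear-retained RNAs had a median of -0.58 with 3 at an unadjusted p under 0.05. Differences also varied with transcript length, whose part in the changes above was tested only through the fit with a length and GC trend removed. The protein-coding genes that rose had a median longest transcript of 2440.5 bases, those that fell 4785, and all tested 3419, and over 14131 protein-coding genes the difference and the length had a Spearman coefficient of -0.35, a description across genes that share libraries. With a trend on length and GC content removed from each library, 223 genes were called, 147 higher and 76 lower, 187 of them shared with the 419 in the same direction. Rpl4 then lay at -0.14 against 0.11 before. In that fit Scap (-0.35, limma adjusted p = 0.174), Acaca (-0.62, limma adjusted p = 0.116), Cldn8 (0.54, limma adjusted p = 0.264) and Pcna (0.4, limma adjusted p = 0.0772) no longer passed. Nor did Cym, Gp2, Tg, Scgb3a2, Agr2, Clu, Aldh3a1 and Gadd45b, among others (limma adjusted p = 0.0543 to 0.103). Pgc (limma adjusted p = 0.0121), Tff2 (limma adjusted p = 0.0308) and Muc5ac (limma adjusted p = 0.0106) still passed. So did Ppp1r3a (4.3, limma adjusted p = 0.000397) and Bicc1 (-2.17, limma adjusted p = 0.000329).

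**Figure D4:**
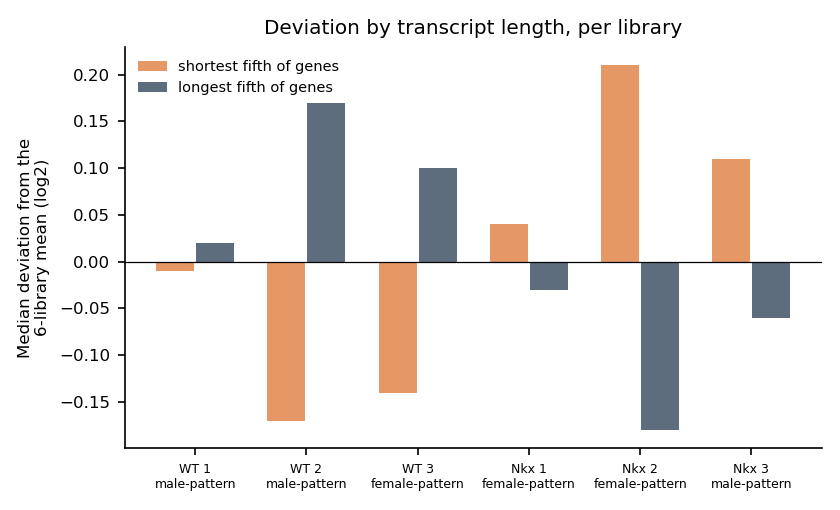
Median deviation (log2) from the mean of the 6 libraries for the shortest 20% and the longest 20% of protein-coding genes by longest transcript, per library. Short genes lie above 0 and long genes below 0 in all 3 Nkx libraries, the reverse in all 3 WT libraries, with deviations from -0.18 to 0.21.

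In Double, which carries the NANCI allele in addition, some of the called genes differed further from Nkx, in either direction. Between Double and Nkx 3460 genes (21.7%) differed (limma adjusted p under 0.05). Retnla was at 20.24, 19.04, 20.24 and 17.83 in Double, 4.15 above Nkx (limma adjusted p = 0.00148). Agr2 was at 13.65, 13.09, 12.64 and 12.44, which is 4.52 above Nkx (limma adjusted p = 0.000136), and Clu, Hnf4a, Cfi and Apob were higher by 4.08, 4.31, 3.75 and 3.68. Scgb3a2 was at 14.35, 14.47, 14.22 and 14.45, which is 2.13 below Nkx (limma adjusted p = 0.00136) and within the WT range.

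Other genes showed no detectable step from Nkx to Double. Ros1 was at 4.94, 6.54, 5.68 and 6.27 (0.01, limma adjusted p = 0.991), Pcna differed by 0 and Bicc1 by 0.15 (limma adjusted p = 0.596), and Ppp1r3a, at 11.11, 10.81, 11.07 and 11.08, by 0.87 (limma adjusted p = 0.0914). Veph1 was 1.14 lower in Double than in Nkx (limma adjusted p = 0.0177), and Ptgs2, at 11.9, 12.48, 12.59 and 12.49, was 1.2 lower (limma adjusted p = 0.00228). Endothelial markers were lower in Double as well, with list means of 7.86 at the lowest, and Pecam1 was 2.43 below Nkx (limma adjusted p = 0.00175). All 4 Double libraries and 2 of the 3 Nkx libraries had the female pattern, and the part of sex in these differences was not tested.

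The same allele was measured at E18.5 in other libraries, enriched with EpCAM magnetic beads and normalized separately, where 1007 genes (7.32%) differed between Nkx and WT. Of the 242 genes higher at 6 months 217 were measured at E18.5, and 48 of them were higher and 0 lower there past the threshold. Of the 177 lower genes 159 were measured, of which 41 were lower and 3 higher, namely Myh10, Nup210 and Lamc1, which are named because they are the only exceptions. The 92 genes called at both ages made up 24.5% of the 6-month calls and 9.57% of the E18.5 calls among genes measured at both.

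Ppp1r3a differed by 4.87 at E18.5 (limma adjusted p = 0.000106), beside 4.44 in the adult. Ros1 differed by -2.28, Tff2 by 4.58, Gp2 by 3.57, Hnf4a by 4.42 and Ern2 by 4.51, and each passed there. For Tff2 and Gp2 these differences rested on low WT means at E18.5, 1.31 and 2.97, against 5.89 and 6.54 in Nkx. Bicc1 differed by -0.69 (limma adjusted p = 0.0461). Olfm4 differed by -0.7 at E18.5 (limma adjusted p = 0.207) and Veph1 by 0.84 (limma adjusted p = 0.189), and neither passed. Nkx2-1 differed by 0.07 (limma adjusted p = 0.82). Ages were not tested against each other.

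**Figure D5:**
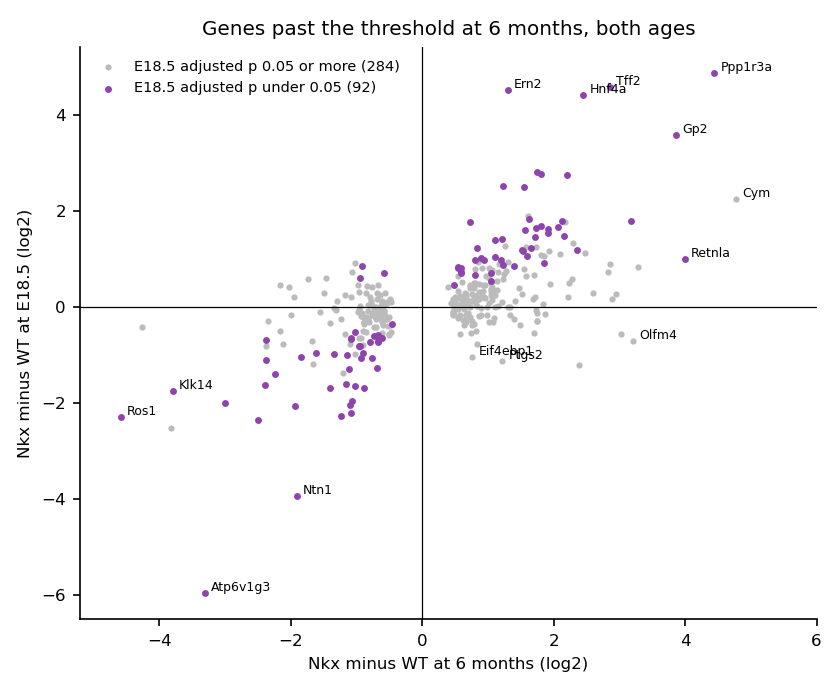
Nkx minus WT differences (log2) at 6 months and at E18.5 for the genes called at 6 months and measured at both ages, with the 92 that also passed at E18.5 in purple and the other 284 in grey. Purple points have the same sign on both axes except for 3 genes that were lower at 6 months and higher at E18.5.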

How the data were processed

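RNA was sequenced from sorted lung epithelium, and 6 libraries of 6 months (3 WT, 3 Nkx) were compared. The deposited tables hold 1 log2 expression value per Ensembl gene and library. The submitters' processing notes name STAR, limma and mm9, without roles or versions, and for the counter, the strand setting and the filters nothing was given in the sources used here. Sorted values were nearly the same in all libraries of an age (median SD of a rank 0.00242), as after quantile normalization, so sequencing depth is unknown and no counting interval is given.

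Genes were tested with limma 3.58.1 (R 4.3.3, empirical Bayes with a mean-variance trend) in 1 model over the 10 libraries of 6 months (3 groups, 7 residual degrees of freedom), with Benjamini-Hochberg adjustment over all 15958 genes and a threshold of 0.05. The test was checked on simulated data. Symbols (15353 genes) and GRCm38 coordinates come from GENCODE by gene ID, and list members were matched for 880 of 962 entries. The members and the 36 gene lists were chosen with earlier results of these data known. Genes were named by rule: the Nkx2-1 neighbours, the 12 largest changes in each direction among called genes with a mean of at least 5 (no predicted genes or clones), up to 4 called members of each list or else its 2 highest, and the 5 smallest p. Other genes named, and the promoters searched, were chosen after values were seen. Results for a few genes are not reported here. Another 14 settings, with 3 added later, cover the libraries fitted, moderation, low values, sex pattern, a stand-in for depth, replicate number, each library left out, transcript length with GC content, and each sex pattern alone.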

Additional observations from a re-analysis of the deposited data

Results flagged for a closer look

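Of the 376 genes called at 6 months and measured at E18.5, 19 had groups that did not overlap at either age and lay in opposite directions. Of these 7 were higher and 12 lower at 6 months. Among all genes at 6 months, 16.1% had all Nkx libraries above WT and 14.4% all below. The share of all genes without overlap at E18.5 was not counted, so no result is read from the number 19. Those named in the report are given here. Myh10 differed by -0.95 at 6 months and by 0.61 at E18.5, Nup210 by -0.92 and by 0.86, and Lamc1 by -0.58 and by 0.71, and these 3 passed the threshold at both ages. Eif4ebp1 differed by 0.76 at 6 months and by -1.04 at E18.5, and Ptgs2 by 1.22 and by -1.13, and both passed at 6 months only. The difference between the ages was not tested for any of them.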

How the results depend on the processing

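Against 419 called genes, 98 were called without the mean-variance trend, 228 with sex pattern as a covariate, 131 with the replicate block, 223 after the length and GC trend was removed (added after seeing the data), 201 with a difference of at least 1 in addition, and 59 to 211 with single libraries left out. The count stayed between 400 and 475 under the other settings named in the methods. In the added fits of 1 sex pattern, where WT or Nkx has a single library assumed to vary like the other libraries, female-pattern libraries gave 4 calls and male-pattern libraries 0 with limma (1879 and 1198 at an unadjusted p under 0.05). The labels do not say whether the replicate numbers pair the libraries. Deviations of same-numbered WT and Nkx libraries correlated at -0.3, -0.1 and -0.28. Each such pair had opposite sex patterns, so these values cannot decide whether the libraries were paired. Nkx2-1 kept its sign and its side of the threshold in all 17 settings (-0.62 to -0.4).

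All 60 named genes past the threshold kept their sign in every setting run. As their groups did not overlap, this was fixed in advance where libraries were left out or split by sex pattern. Of 45 named genes not past it, 20 changed sign in at least 1 or, for Sftpc, left a difference of 0, of which 18 are given here, and the cause was not tested. In male-pattern libraries alone the reversed differences were Atp5b 0.02, Chil3 -1.89, Gemin2 -0.06, Myh6 -0.2, Sec14l3 0.12, Tppp3 0.51, Tsix -0.91, Ttc6 0.06, Tubb4b 0.04 and Xist -1.33. In female-pattern libraries alone they were Ifi27 -0.05, Inmt 0.41, Pax9 -0.71 and Xist -0.11. With sex pattern as a covariate they were Chil3 -0.18, Pax9 -0.13, Tppp3 0.1, Tsix -0.24 and Xist -0.72. With the length and GC trend removed they were Brms1l -0.11, Gemin2 -0.11, Ifi27 -0.28, Mipol1 -0.12, Rpl4 -0.14 and Ttc6 0.03, and with the depth stand-in Ager -0.01. With single libraries left out, Ager ranged from -0.15 to 0.4, Brms1l from -0.06 to 0.19, Chil3 from -0.55 to 1.37, Inmt from -0.43 to 0.14, Myh6 from -0.23 to 0.44, Nfkbia from -0.01 to 0.39, Pax9 from -0.04 to 0.79, Tppp3 from -0.35 to 0.13, Ttc6 from -0.13 to 0.1, Tubb4b from -0.18 to 0.04 and Xist from -0.01 to 3.42.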

Other observations

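Several genes outside the lists passed the threshold under each of 14 other settings, with narrow groups, and are named here after their values were seen. Fgfbp1, which releases fibroblast growth factors from the matrix, was at 10.67, 10.62 and 10.18 in WT and 11.77, 11.87 and 11.78 in Nkx (1.31 ± 0.13, limma adjusted p = 0.00107). Hpse, the enzyme that cleaves heparan sulfate, was at 7.2, 7.08 and 7.27 in WT and 8.67, 8.7 and 8.73 in Nkx (1.52 ± 0.17, limma adjusted p = 0.00206). Both act on heparan sulfate or its ligands, and both rose. Npnt, the basement membrane protein nephronectin, fell from 13.04, 13.25 and 13.2 to 12.5, 12.46 and 12.27 (-0.75 ± 0.11, limma adjusted p = 0.00877). Heatr1, a ribosome biogenesis factor, fell from 12.29, 12.1 and 11.91 to 10.4, 10.86 and 10.55 (-1.5 ± 0.17, limma adjusted p = 0.00206), while no ribosomal protein gene of the list passed. Ptgr1, a reductase that inactivates prostaglandins and leukotrienes, rose from 11.49, 11.2 and 11.43 to 12.54, 12.42 and 12.46 (1.1 ± 0.13, limma adjusted p = 0.0029).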
